A study of Drosophila melanogaster with 8 samples.

Results

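The genes described here are the 37 listed genes of phototransduction and the visual cycle, the machinery with which a fly photoreceptor turns light into an electrical response. They were taken from the 17518 named genes of the deposited count table by their symbols, which matched 36 of them directly, and 1, *CdsA*, through the reference, which lists it as a synonym of the table's *Cds*. All 37 passed the filter on low counts that kept 12048 genes for testing. RNA was sequenced from the heads of *w1118* male flies, 1 to 3 d of age, kept for 1 day in a food condition or a starvation condition, with 4 biological samples of 30 flies in each condition. For its activity assay the paper describes food as sucrose and yeast in agar, and starvation as agar alone. It does not describe the diets again for the RNA samples. The *w1118* strain, which lacks the *white* gene product and has white eyes, was the background of both conditions, and *w* itself had between 0 and 4 counts in a library. Whole heads were used, so brain, eyes, fat body and cuticle were pooled, and the light phase at collection is not given in the sources used here.

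In the fly eye, light isomerises the vitamin A-derived chromophore held by rhodopsin, and the activated rhodopsin drives a Gq protein and phospholipase C, which splits a membrane phosphoinositide and leads to opening of the TRP and TRPL cation channels. Arrestins, calcium-dependent enzymes and a scaffolded signalling complex end the response, a lipid cycle rebuilds the phosphoinositide, and the photoreceptor signals to the lamina with histamine. Because the chromophore is made from dietary carotenoids, uptake and cleavage of carotenoids belong to the same system.

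Food was compared with starvation for every gene with the quasi-likelihood test of edgeR, and a gene was called at an adjusted p below 0.05. Of the 37 genes, 12 were called higher under starvation, 3 were called lower and 22 were not called. Over all genes tested, 26.7% were called, 10% higher and 16.7% lower. The median log2 fold change was 0.24 for the 37 genes and -0.01 for all genes tested, with 30 of the 37 estimates above 0 and 7 below. The rises were small, and none reached 2-fold, which 0.93% of all genes tested did when called higher. Of the falls, *ninaD* alone passed 2-fold, a bound passed downwards by 5.37% of all genes tested. In 19 of the 37 genes all 4 starvation samples lay above all 4 food samples, against 12.6% of all genes tested, and in 3 they all lay below, against 18.6%. In a bulk sample of heads, a change in how many cells of a type are present cannot be told apart from a change in RNA per cell.

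The members lie on 5 chromosome arms, 8 on 2L, 6 on 2R, 6 on 3L, 13 on 3R and 4 on X. In release 6 of the genome, with positions as the deposited table gives them, *ninaE* lies on 3R from 19886255 to 19888206, *Rh6* on 3R from 15483158 to 15484699, *ninaA* on 2L from 877302 to 878270, *ninaB* on 3R from 13700565 to 13703164 and *ninaD* on 2L from 18081628 to 18083608. Reads were counted on a gene as a whole, so its transcripts were not separated.

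**Figure D1:**
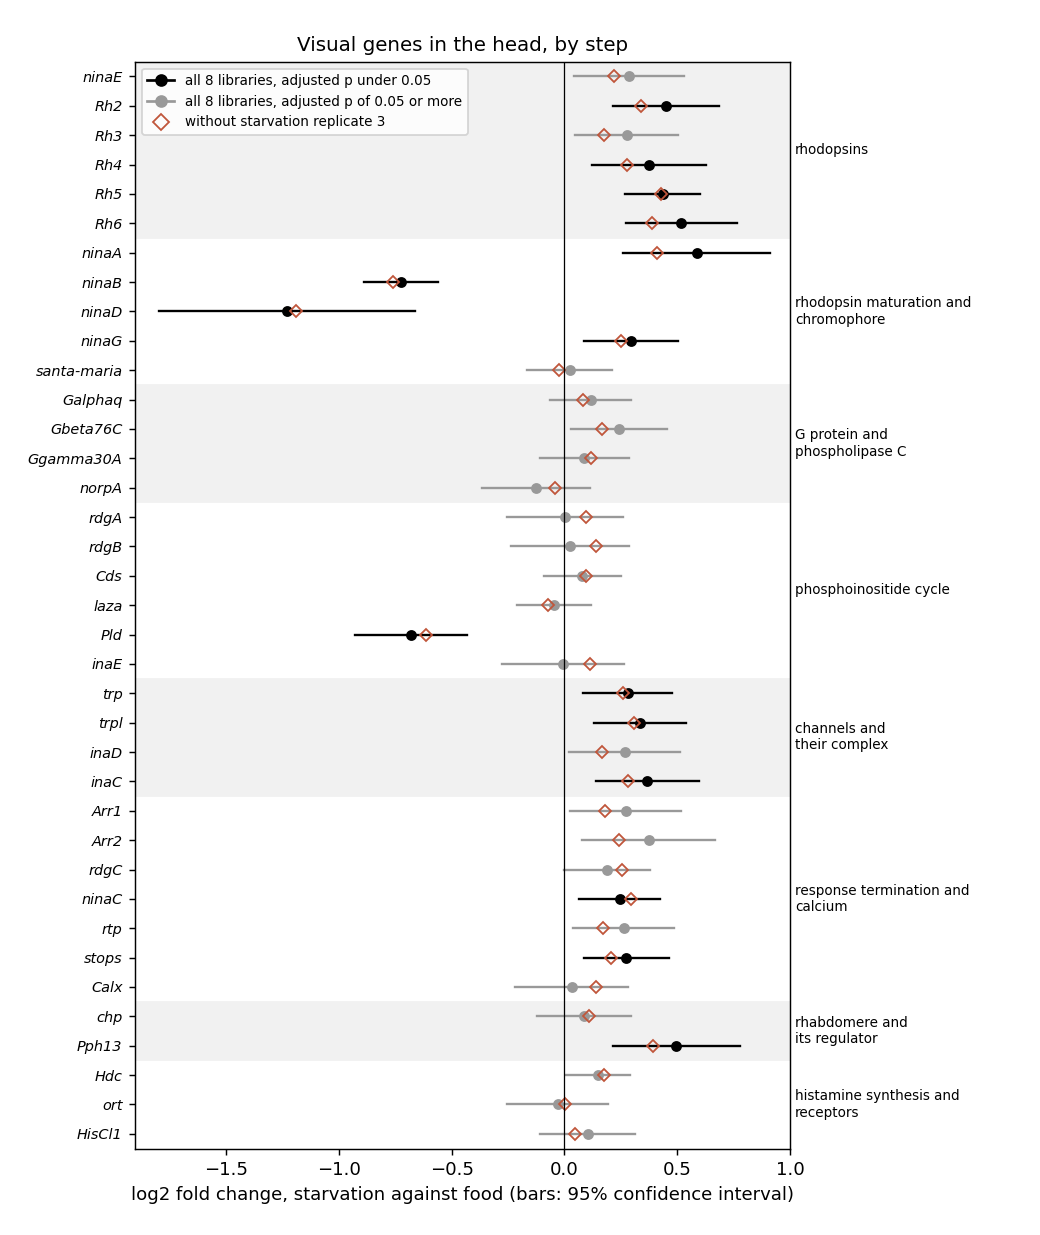
Log2 fold change (starvation against food) of each of the 37 genes, grouped by step of the pathway, with 95% confidence intervals from the edgeR fit, black points where the adjusted p was below 0.05, grey points elsewhere, and open diamonds for the fit without starvation replicate 3. With all 8 libraries the points lie between -1.23 for *ninaD* and 0.58 for *ninaA*, and most sit a little to the right of 0.

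The libraries held 47936038 to 53168449 counts, and no member had fewer than 98 counts in any library. The library of starvation replicate 3 stood apart. Its mitochondrial share of counts was 21.9%, with 15.4% to 16.6% for starvation replicates 1, 2 and 4 and 14.1% to 15.7% for food. Its levels fell with exonic gene length (Spearman rho across genes of -0.57 for the deviation from the mean of its condition). In the other starvation libraries these deviations rose with length (0.30 to 0.39). The mean includes replicate 3 and the deviations sum to 0, so those values do not show a length trend of the other libraries by themselves. Among the 4 starvation libraries it held the highest level for 21 of the 37 genes and the lowest for 12. Without this library 21 members were called higher and 3 lower, and the median of the 37 log2 fold changes was 0.17 in place of 0.24. Calls rose over the whole table too, to 1947 genes higher and 2631 lower. Upper-quartile scaling moved the median of all genes tested from -0.01 to 0.10 and the split of called genes from 1210 higher and 2012 lower to 2292 higher and 1543 lower, and 21 members were then called higher and 3 lower. The median of the members less that of all genes tested was 0.26 as reported, 0.26 with that scaling and 0.16 without starvation replicate 3. Taking the length trend out gave 2643 genes higher and 1979 lower, and again 21 members higher and 3 lower. That fit took out a constant for each library along with the trend, so it also rescaled the libraries. With food replicate 2 left out, 4 members were called higher. Over the whole table, the genes called higher ranged from 760 to 1947 as each library was left out in turn. Of the 15 calls, 7 (*Rh2*, *Rh5*, *Rh6*, *ninaA*, *ninaB*, *ninaD* and *Pld*) were made in all 17 alternative processings and 8 were lost in at least 1. Of the 22 members not called, 10 were called in at least 1 alternative and 12 in none.

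As a share of all counts in a library, the 37 genes together took 3.72%, 3.57%, 3.72% and 3.52% in food replicates 1 to 4 and 4.25%, 4.39%, 4.92% and 4.44% in starvation replicates 1 to 4. The means were 3.63 ± 0.10% and 4.50 ± 0.29% (SD, n = 4 each), and the groups did not overlap. No test is given for this sum, because the members were chosen with earlier results of these data known. The highest share was that of starvation replicate 3, and the other 3 starvation libraries also lay above every food library. A share also depends on what the other genes do, and fat body transcripts such as *Lsp2*, a storage protein gene, fell steeply in these heads (log2 fold change -8.03 ± 0.42 SE).

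**Figure D2:**
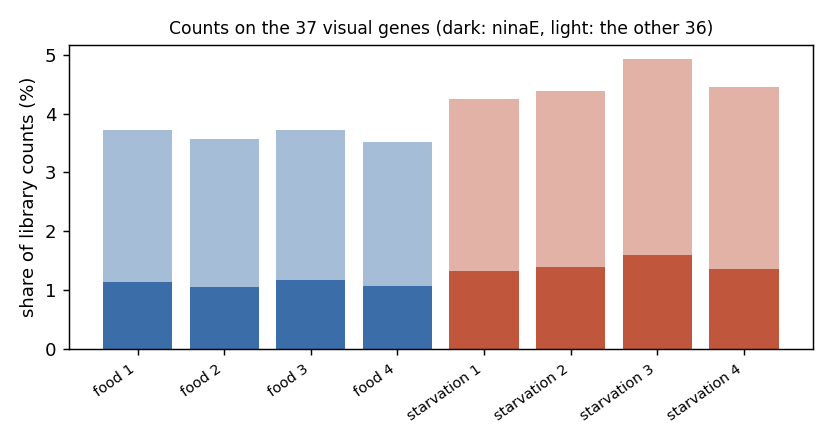
Percent of all gene counts of a library that fell on the 37 genes, as a stacked bar per library, dark for *ninaE* and light for the other members. Food libraries lie between 3.52% and 3.72% and starvation libraries between 4.25% and 4.92%, with starvation replicate 3 at the top.

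Rhodopsins are the light receptors themselves, and each type of photoreceptor makes its own. *ninaE* encodes the rhodopsin of the outer photoreceptors, *Rh3* and *Rh4* the ultraviolet rhodopsins of one class of inner photoreceptor, *Rh5* and *Rh6* the blue and green rhodopsins of the other class, and *Rh2* the rhodopsin of the ocelli, the simple eyes on top of the head. Per kb of exonic length, *ninaE* was by far the most abundant, at 7209.9 ± 447 RPKM on food (SD, n = 4), rank 5 among all genes tested. It was followed by *Rh4* at 554 ± 36.3, *Rh3* at 315 ± 8.86, *Rh2* at 117 ± 4.08, *Rh5* at 86.0 ± 4.17 and *Rh6* at 16.3 ± 0.428 RPKM. Each step of that order exceeded the SDs of its neighbours.

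All 6 member rhodopsin genes had higher mean levels under starvation, by 1.21-fold for *Rh3* to 1.43-fold for *Rh6*, and 4 of them were called. Their median log2 fold change was 0.40, and in all 6 the samples of the conditions did not overlap. *Rh6* showed the largest estimate. Its level was 23.7, 22.9, 22.5 and 22.4 CPM in food replicates 1 to 4 and 28.6, 30.4, 41.5 and 30.5 CPM in starvation replicates 1 to 4, giving a log2 fold change of 0.52 ± 0.11 (SE; adjusted p = 0.0055). All starvation samples were above all food samples, and starvation replicate 3 lay well above the other 3. *Rh5* lay at 126, 141, 136 and 138 CPM on food and 188, 170.3, 186 and 186 CPM under starvation, a log2 fold change of 0.43 ± 0.075 (SE; adjusted p = 0.0015). Here the lowest starvation sample was replicate 2, still above every food sample, and replicate 3 did not stand out.

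For *Rh2* the food samples were at 156, 162, 166 and 155 CPM and the starvation samples at 200.1, 204, 269 and 201 CPM, a log2 fold change of 0.45 ± 0.11 (SE; adjusted p = 0.0091). Starvation replicate 3 was again far above the rest of its group, and without it the estimate was 0.34. The ultraviolet rhodopsins had smaller estimates. *Rh4* lay between 691 and 809.6 CPM on food and between 852 and 1164 CPM under starvation, a log2 fold change of 0.37 ± 0.11 (SE; adjusted p = 0.033). That call was lost when food replicate 1, 2 or 4 or starvation replicate 4 was left out (adjusted p from 0.068 to 0.097). *Rh3* lay between 419.6 and 446 CPM on food and between 469 and 637 CPM under starvation and did not pass the test (log2 fold change 0.28 ± 0.10 SE, adjusted p = 0.075).

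*ninaE* alone took between 1.06% and 1.18% of the counts of a food library and between 1.33% and 1.60% of those of a starvation library. Its levels were 11883, 10852, 12222 and 10839 CPM on food and 12961, 13396, 15956 and 13512 CPM under starvation. Starvation replicate 3 was the highest of all, and the lowest starvation sample was above the highest food sample. The log2 fold change of 0.29 ± 0.11 (95% interval 0.04 to 0.53) did not pass the threshold over all genes (adjusted p = 0.082). In the fit without starvation replicate 3 the estimate was 0.22 and the adjusted p was 0.025, within a range of 0.0024 to 0.22 over its alternatives. Across the 17 alternative processings, or 16 for *ninaE*, the log2 fold changes of these 6 rhodopsin genes stayed between 0.18 and 0.64. A rhodopsin gene outside the members, *Rh7*, which acts in the brain, went the other way. It lay at 34.6, 36.8, 36.9 and 32.6 CPM on food and 32.2, 28.9, 24.6 and 28.1 CPM under starvation, a log2 fold change of -0.31 ± 0.089 (SE; adjusted p = 0.025), and was named after its values were seen. All its starvation samples lay below all its food samples, the highest of them narrowly.

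**Figure D3:**
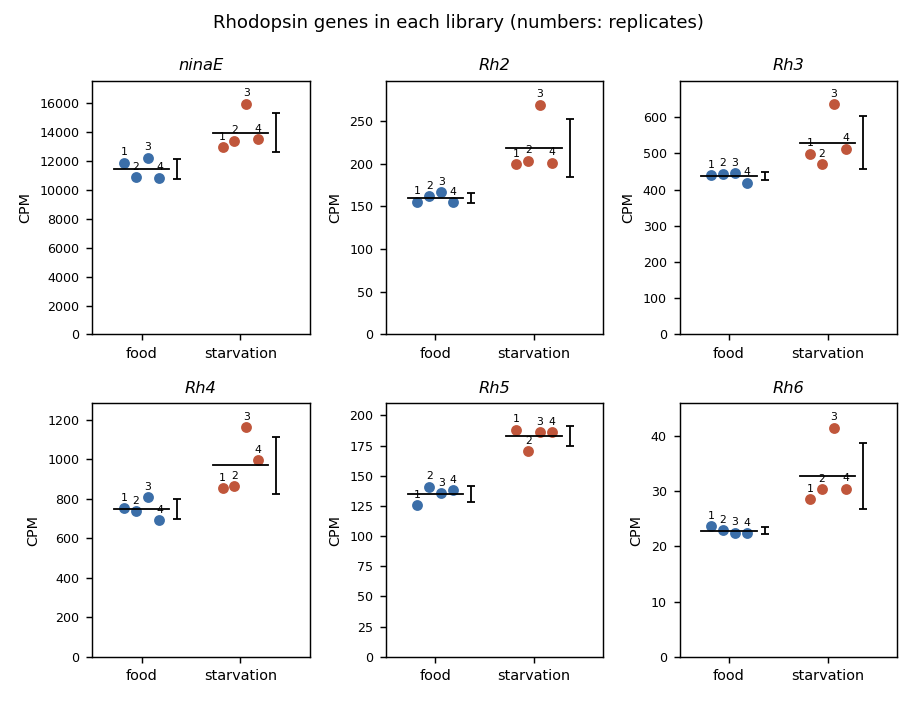
TMM-normalized CPM of each rhodopsin gene in the 8 libraries, 1 panel per gene with its own axis starting at 0, with the mean and SD of each condition. In every panel the 4 starvation points lie above the 4 food points, and starvation replicate 3 is the highest point in each panel except that of *Rh5*.

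The mix of rhodopsins was compared through ratios of levels per length within each library, 9 ratios in all, which were chosen after the levels had been seen. The ratio of *Rh6* to *Rh5* was 0.190 ± 0.014 on food and 0.200 ± 0.035 under starvation (SD, n = 4 each), with overlapping groups (exact permutation p = 0.66, 0.74 after adjustment over the 9). *Rh4* stood to *Rh3* at 1.76 ± 0.079 on food and 1.88 ± 0.097 under starvation, again overlapping (exact permutation p = 0.086, adjusted 0.21). In 8 of the 9 ratios the groups overlapped, and none passed after adjustment. The smallest p that 4 against 4 samples allow is 0.0286, so 1 separated ratio among 9 could not pass after adjustment. The adjusted values therefore do not show that the mix was unchanged. The one ratio without overlap was that of *Gbeta76C* to *Galphaq*, at 5.43 ± 0.10 on food and 5.91 ± 0.31 under starvation (exact permutation p = 0.0286, adjusted 0.21).

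The largest changes in either direction lay among the genes that make the chromophore and carry rhodopsin to the membrane. *ninaD* encodes a scavenger receptor that takes up carotenoids, *ninaB* the enzyme that cleaves them and isomerises the product, *santa-maria* a further scavenger receptor of the pathway, *ninaG* an oxidoreductase needed to make the hydroxylated chromophore, and *ninaA* a cyclophilin that escorts rhodopsin out of the endoplasmic reticulum. The *ninaD* level was 5.70, 7.24, 3.71 and 2.88 CPM on food and 2.04, 2.26, 1.92 and 2.11 CPM under starvation. All starvation samples lay below all food samples, the food samples spread widely, and food replicate 2 was the highest of them. The log2 fold change was -1.23 ± 0.26 (SE; adjusted p = 0.0047), or 0.427 of the food level, and without food replicate 2 it was -0.97, short of 2-fold but still called. This was also the gene with the second lowest level per length among the 37, at 2.73 ± 1.10 RPKM on food.

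*ninaB* fell as well. Its food samples were at 91.3, 92.1, 99.0 and 84.3 CPM and its starvation samples at 54.0, 54.6, 59.7 and 53.6 CPM, a log2 fold change of -0.73 ± 0.074 (SE; adjusted p = 4.5e-05), and the groups were far apart. *ninaA*, in contrast, rose from 98.2, 87.2, 96.8 and 78.3 CPM on food to 116, 114, 182 and 128 CPM under starvation, a log2 fold change of 0.58 ± 0.15 (SE; adjusted p = 0.013) and the largest rise of the 37. The groups were apart, with starvation replicate 3 highest. *ninaG* rose less, from between 21.1 and 27.9 CPM to between 27.7 and 33.1 CPM (log2 fold change 0.29 ± 0.094 SE, adjusted p = 0.039), with groups that overlapped narrowly, and that call was lost without any one of 5 libraries (food replicates 1, 2 and 4 and starvation replicates 2 and 4, adjusted p from 0.058 to 0.11). *santa-maria* lay between 129 and 147 CPM on food and between 129 and 153 CPM under starvation, with a log2 fold change of 0.02 and a 95% interval of -0.17 to 0.21. The calls of *ninaA*, *ninaB* and *ninaD* held in all 17 alternatives.

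**Figure D4:**
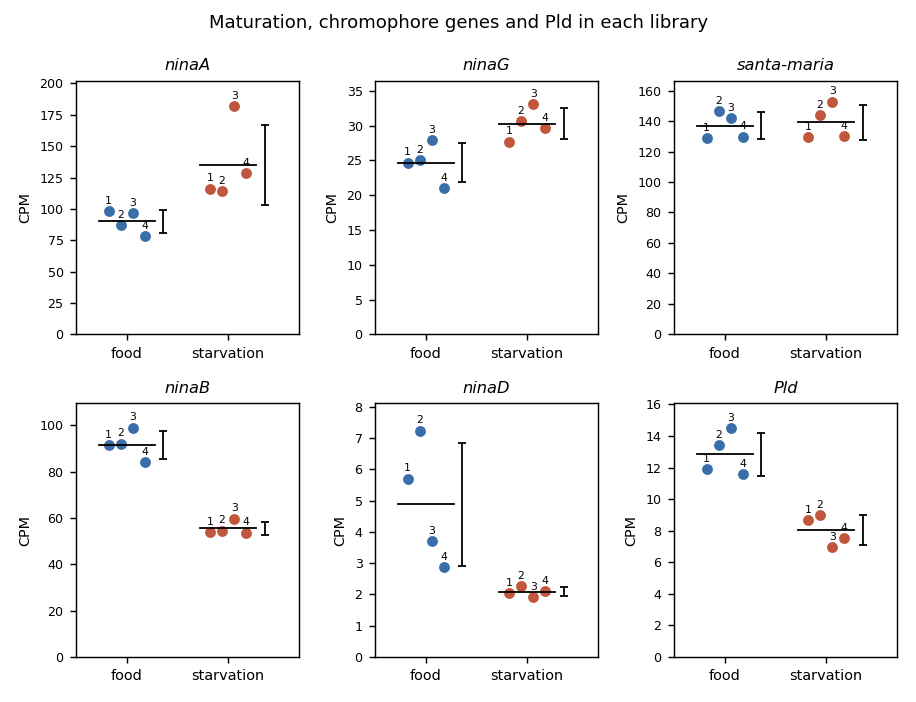
TMM-normalized CPM of the genes of rhodopsin maturation and chromophore supply, and of *Pld*, in the 8 libraries, 1 panel per gene, with the mean and SD of each condition and axes starting at 0. *ninaB* and *ninaD* are lower in all 4 starvation samples, *ninaA* is higher in all 4, and the points of *ninaG* and *santa-maria* overlap between conditions.

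Both carotenoid genes are also expressed outside the photoreceptors, so markers of other tissues were read beside them. Of the 10 fat body markers listed, 9 were tested, of which 5 were called lower and 1, *CG5966*, higher, and their summed level was 6417 to 10710.4 CPM in food libraries and 987 to 1339 CPM in starvation libraries. Of 8 glial markers 7 were called lower, and their summed level was 2792 to 3121 CPM in food libraries and 1719 to 2056 CPM in starvation libraries. Of 6 hemocyte markers 5 were called lower, with a summed level of 240.0 to 377 CPM in food libraries and 129 to 199 CPM in starvation libraries. Of 7 tested genes of pigment cells and pigment synthesis 4 were called lower, with a summed level of 470.1 to 517 CPM in food libraries and 343 to 372 CPM in starvation libraries. Of the defining markers of these lists, *repo* of glia and *Hml* of hemocytes were detected in every library. Both were among the markers called lower. The log2 fold change was -0.49 ± 0.11 for *repo* (SE; adjusted p = 0.0064) and -2.66 ± 0.51 for *Hml* (SE; adjusted p = 0.0027). The part of these tissues in the falls of *ninaB* and *ninaD* was not tested. *Arr1* and *ninaD* lie next to each other on chromosome 2L, with 321 bases from the end of *Arr1* to the start of *ninaD*, and the log2 fold change was 0.27 for *Arr1*, not called, and -1.23 for *ninaD*.

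Rhodopsin activates a trimeric G protein, whose alpha subunit (*Galphaq*) turns on phospholipase C (*norpA*), the enzyme that splits the phosphoinositide. None of the 4 genes of this step was called by edgeR or limma-voom, 1 of them was called by DESeq2, and 1 had an unadjusted p below 0.05. *Gbeta76C*, the eye-specific beta subunit, had the largest estimate, from between 853 and 923 CPM on food to between 977 and 1225 CPM under starvation, a log2 fold change of 0.24 ± 0.10 (SE; adjusted p = 0.089) with no overlap. For the gamma subunit gene *Ggamma30A* the estimate was 0.09 ± 0.089 (SE; adjusted p = 0.54) and for *Galphaq* 0.12 ± 0.081 (SE; adjusted p = 0.35). *Galphaq* was also the only member that the table marked as overlapping another gene, *CG45086*. *norpA* lay at 1574, 1465, 1411 and 1399 CPM on food and 1403, 1361, 1104 and 1493 CPM under starvation, with a log2 fold change of -0.13 (95% interval -0.36 to 0.11). Its groups overlapped, and starvation replicate 3 was the lowest of the 8 samples.

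The phosphoinositide is rebuilt by a cycle of lipid enzymes, and here the estimates of the members lay near 0 with 1 exception. *rdgA* (diacylglycerol kinase), *rdgB* (phosphatidylinositol transfer protein), *Cds* (CDP-diacylglycerol synthase), *laza* (lipid phosphate phosphatase) and *inaE* (diacylglycerol lipase) had log2 fold changes from -0.05 to 0.08, and none was called. Their 95% intervals were -0.25 to 0.26 for *rdgA*, -0.24 to 0.29 for *rdgB*, -0.09 to 0.25 for *Cds*, -0.21 to 0.12 for *laza* and -0.27 to 0.26 for *inaE*. The exception was *Pld*, phospholipase D, which makes phosphatidic acid. It fell from 11.9, 13.4, 14.5 and 11.6 CPM on food to 8.66, 8.98, 6.97 and 7.51 CPM under starvation, without overlap, a log2 fold change of -0.68 ± 0.11 (SE; adjusted p = 0.0011) that was called in all 17 alternatives. It had the lowest level per length of the 37 genes, 2.38 ± 0.252 RPKM on food. *Pld* is transcribed in many tissues besides the eye. Of the phosphoinositide enzymes listed outside the members, *Pis* was called higher (0.29 ± 0.085 SE, adjusted p = 0.028), with no overlap. *PI4KIIIalpha*, *PIP5K59B* and *PIP4K* were not called.

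TRP and TRPL are the light-activated channels, and TRP is held with phospholipase C and an eye-specific protein kinase C (*inaC*) by the scaffold protein of *inaD*. Of these 4 genes 3 were called higher. *trp* lay at 1802, 1703, 1779.6 and 1599.8 CPM on food and at 1923, 2110.5, 2186 and 2139 CPM under starvation, a log2 fold change of 0.28 ± 0.089 (SE; adjusted p = 0.038). *trpl* lay at 1146, 1089, 1124 and 985 CPM on food and 1306, 1272, 1447 and 1453 CPM under starvation, 0.33 ± 0.092 (SE; adjusted p = 0.020). Both channel genes were higher in every starvation sample, and starvation replicate 3 did not stand out. *inaC* rose from between 514 and 593 CPM to between 664 and 856 CPM, 0.37 ± 0.10 (SE; adjusted p = 0.023), and the estimate for *inaD* was of similar size but not called, 0.27 ± 0.11 (SE; adjusted p = 0.11). The calls of this step were near the threshold. That of *trp* was lost without any one of 6 libraries (all but starvation replicates 1 and 3, adjusted p from 0.068 to 0.12) and with limma-voom (0.050), that of *trpl* without food replicate 2 or 4 (0.065 and 0.068), and that of *inaC* without food replicate 2, 3 or 4 (0.051 to 0.076). The ratio of *trp* to *trpl* per length was 1.49 ± 0.025 on food and 1.43 ± 0.084 under starvation, with overlapping groups (exact permutation p = 0.23, adjusted 0.34).

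The response ends when arrestin caps the activated rhodopsin and calcium is cleared. The 2 arrestin genes were the most abundant members per length after *ninaE*, with *Arr2* at 3471 ± 241 RPKM and *Arr1* at 1396 ± 75.7 RPKM on food (ranks 9 and 27 of all genes tested). *Arr2* lay at 5509, 5244, 5798 and 4926 CPM on food and 5982, 6260.3, 8815 and 6739.6 CPM under starvation, and its log2 fold change of 0.37 ± 0.13 (SE; adjusted p = 0.064) did not pass. *Arr1* was at 3457 ± 187 CPM on food and 4171 ± 547 CPM under starvation (SD, n = 4), 0.27 ± 0.11 (SE; adjusted p = 0.10), not called either. Starvation replicate 3 had the highest value of both arrestin genes and widened the spread of its group. Without it the log2 fold change was 0.24 for *Arr2* (adjusted p = 0.022, range 0.0039 to 0.16 over the alternatives) and 0.18 for *Arr1* (adjusted p = 0.038, range 0.015 to 0.23).

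Of the other 5 genes of this step, 2 were called. *ninaC*, an unconventional myosin with a kinase domain, was at 329 ± 6.69 CPM on food and 390.3 ± 27.9 CPM under starvation, 0.25 ± 0.081 (SE; adjusted p = 0.047). *stops*, a SOCS-box protein gene needed to end the response on time, was at 144 ± 5.86 CPM and 175 ± 16.8 CPM, 0.27 ± 0.086 (SE; adjusted p = 0.036). Both calls depended on single libraries, that of *ninaC* on 7 of the 8 (all but starvation replicate 3, adjusted p from 0.051 to 0.13) and on the tool (0.053 with limma-voom), and that of *stops* on 6 (all but starvation replicates 1 and 3, 0.053 to 0.11) and on the filter (0.051 without one). The gene of the rhodopsin phosphatase, *rdgC*, and *rtp*, whose product works with that of *ninaC*, had estimates of 0.19 ± 0.086 (SE; adjusted p = 0.13) and 0.26 ± 0.10 (SE; adjusted p = 0.083). *Calx*, the sodium-calcium exchanger, had a log2 fold change of 0.03 with a 95% interval of -0.22 to 0.28, and its starvation group ran from 324 to 456 CPM, with replicate 3 the lowest.

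The rhabdomere is the stack of membrane that holds the pigment. *chp*, chaoptin, the adhesion protein of that membrane, was at 1355 ± 118 CPM on food and 1439 ± 69.0 CPM under starvation (log2 fold change 0.09 ± 0.094 SE, adjusted p = 0.57). *Pph13*, a homeodomain transcription factor of photoreceptor differentiation, was at 20.2, 15.4, 19.8 and 16.7 CPM on food and 20.8, 25.4, 30.9 and 24.7 CPM under starvation. All its starvation samples lay above all its food samples, and the log2 fold change was 0.50 ± 0.13 (SE; adjusted p = 0.015). That call was lost only without food replicate 2 among the left-out libraries, with an adjusted p of 0.052.

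Photoreceptors release histamine, which histidine decarboxylase (*Hdc*) makes and which *ort* and *HisCl1*, histamine-gated chloride channels, receive in the lamina and on the photoreceptors. None of the 3 genes was called by edgeR or limma-voom, 1 was called by DESeq2, and 1 had an unadjusted p below 0.05. *Hdc* lay between 69.1 and 72.8 CPM on food and between 74.8 and 82.4 CPM under starvation (0.15 ± 0.064 SE, adjusted p = 0.12). *ort* had a log2 fold change of -0.03 (95% interval -0.25 to 0.19) and *HisCl1* one of 0.10 (95% interval -0.11 to 0.31). Of the steps in order, calls in the upward direction were made for 4 of 6 rhodopsins, 2 of 5 genes of maturation and chromophore, 0 of 4 of the G protein step, 0 of 6 of the lipid cycle, 3 of 4 of the channel complex, 2 of 7 of termination and calcium, 1 of 2 of the rhabdomere and 0 of 3 of the histamine step. The median log2 fold changes of these steps, in the same order, were 0.40, 0.02, 0.10, -0.0018, 0.31, 0.26, 0.29 and 0.10.

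Longer members had lower log2 fold changes. Across the 37 genes the Spearman correlation of log2 fold change with exonic length was -0.58, and over all genes tested it was 0.0049. Genes share libraries, so this is a description and no test was made. Without starvation replicate 3 the values were -0.42 for the members and 0.16 for all genes tested, and with the length trend of each library taken out they were -0.60 and -0.048. Over all alternatives the value for the members lay between -0.66 and -0.42. The members on the X chromosome, *norpA*, *rdgA*, *rdgB* and *inaE*, had exonic lengths from 7128 to 12982 bases and log2 fold changes from -0.13 to 0.02, while *Rh6* has 1407 bases and *Rh2* 1365. Within the starvation group, replicate 3 gave the short members higher and the long members lower values than the other 3 libraries (Spearman rho with length over the 37 of -0.78, against 0.63 to 0.64). These are again deviations from a mean that includes replicate 3, so the values of the other libraries depend on it. The alternative that took the trend, and with it a constant, out of every library left 33 of 37 estimates above 0, and leaving out replicate 3 left 31. The median of all genes tested moved too, from -0.01 as reported to 0.08 with the trend out and 0.0057 without replicate 3. The median of the members less that of all genes was 0.26, 0.24 and 0.16 in the same order. The part of the length trend in the change of each gene was not tested further.

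**Figure D5:**
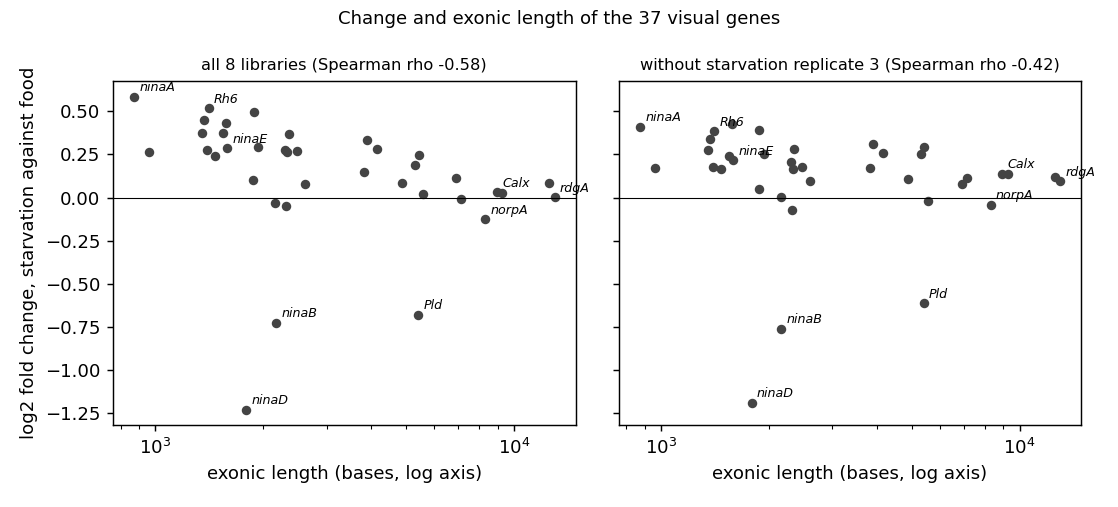
Log2 fold change of each of the 37 genes (starvation against food) plotted against its exonic length in bases on a log axis, from the fit with all 8 libraries and from the fit without starvation replicate 3. Short genes lie mostly above 0 and the longest lie near 0 in both, with Spearman rho of -0.58 and -0.42.

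Neuronal and structural genes were read beside the pathway. None of 10 neuronal markers, *elav*, *nSyb* and *brp* among them, was called by edgeR, DESeq2 or limma-voom, 0 had an unadjusted p below 0.05, and they had a median log2 fold change of -0.08. Of 11 other genes of photoreceptor structure and fate, such as *eys*, *gl* and *crb*, none was called by the same 3 tools and 0 had an unadjusted p below 0.05, with a median of -0.01 and log2 fold changes from -0.20 to 0.10. All 10 neuronal markers, and *eys* and *crb* but not *gl*, were lowest of the 8 libraries in starvation replicate 3. There *elav* was at 164.5 CPM, with 254, 243 and 267 CPM in starvation replicates 1, 2 and 4 and 208 to 234 CPM on food. Likewise *brp* was at 347 CPM, with 762, 660 and 717 CPM in those replicates and 637 to 735 CPM on food. Estimates of these lists without that library are not given here.

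Of 41 further genes of the pathway, listed for their function, 40 were matched and 11 were called (27.5%, near the 26.7% of all genes tested), 6 higher and 5 lower. *Xport-A* and *Xport-B*, from the locus that helps TRP and rhodopsin reach the membrane, both had a log2 fold change of 0.41, but these genes overlap and nearly all their reads are shared. Counted as 1 measurement, they leave 10 of 39 called (25.6%), 5 higher and 5 lower, and among 23 genes of visual signalling 4 higher and 3 lower. *inaF-A*, *inaF-B*, *inaF-C* and *inaF-D* overlap one another as well, were not called, and stay in these counts as separate genes. *Culd*, which acts in rhodopsin turnover, had a log2 fold change of 0.31 ± 0.088 (SE; adjusted p = 0.024), with every starvation sample above every food sample. The upward calls of both *Xport* genes and of *Culd* were lost without food replicate 2 or 4, and those of *Xport* also without food replicate 1. *CDase*, a ceramidase that supports photoreceptor survival, had a log2 fold change of -0.40 ± 0.072 (SE; adjusted p = 0.0019) and *cry*, the blue-light receptor of the clock, one of -0.39 ± 0.079 (SE; adjusted p = 0.0040). All food samples lay above all starvation samples for both.

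The genes that recycle histamine split by direction. *e* (*ebony*), the enzyme that couples histamine to beta-alanine in glia, was at 61.6, 69.5, 58.2 and 58.6 CPM on food and 21.9, 27.8, 21.7 and 21.6 CPM under starvation, a log2 fold change of -1.41 ± 0.10 (SE; adjusted p = 4.4e-06). *b* (*black*), which makes beta-alanine, had a log2 fold change of -0.44 ± 0.092 (SE; adjusted p = 0.0046). *CarT*, the carcinine transporter of photoreceptors, rose instead, from between 79.5 and 89.2 CPM to between 110.0 and 129 CPM (0.46 ± 0.079 SE, adjusted p = 0.0014), and *t* (*tan*), which splits carcinine again, was not called (0.07 ± 0.088 SE, adjusted p = 0.64). *e* also serves cuticle pigmentation, and 7 of the 8 glial markers fell beside it, as given above. The part of glial RNA in its fall was not tested.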

How the data were processed

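The deposited values were raw gene counts. The authors extracted head RNA, mapped paired-end reads with STAR 2.6.1b, merged 2 sequencing runs of each sample and counted reads per gene with ASpli, without normalization. The strand setting is not given in the sources used here. The table also gives exonic length and position on release 6 of the genome, and its 1 row without a gene name (0.0042% to 0.0054% of counts) was left out. Conditions and replicate numbers came from the sample labels, and no column lacked a sample (0 columns).

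From the deposited counts, edgeR 4.0.16 (R 4.3.3) gave TMM factors, a filter (filterByExpr), quasi-likelihood tests and Benjamini-Hochberg adjusted p-values over 12048 genes. A standard error is the size of the log2 fold change divided by the square root of F. CPM are TMM-normalized and RPKM are CPM per kb of exonic length. Ratios of levels had an exact two-sided permutation test, with 0.0286 as its smallest p. The common biological coefficient of variation was 0.138. P-values measure the spread between 4 biological samples a condition, and no pair of replicates agreed within counting noise. The fit was tested on simulated data.

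The members and gene lists were chosen with earlier results of these data known. Every member was named, and of the other pathway genes called the 8 with the largest changes. *Rh7*, *t*, *Pis*, *PI4KIIIalpha*, *PIP5K59B*, *PIP4K*, *eys*, *gl* and *crb*, the marker genes named and the 9 ratios were chosen after values were seen. The 17 alternatives were DESeq2 1.42.0, limma-voom (limma 3.58.1), RLE and upper-quartile factors, no filter on low counts, a minimum mean of 10 counts in one of the conditions, leaving out the 10 most abundant genes (*ninaE* and *Arr2* among them), a replicate block, removal of a trend with exonic length, and leaving out each of the 8 libraries. The trend with exonic length was removed together with a constant for each library. The sequences of the members, splicing within genes and protein levels were not analysed here.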

Additional observations from a re-analysis of the deposited data

Results flagged for a closer look

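Among the 4 samples of each condition, a gene's highest or lowest sample was compared with the other 3, and it was set aside when its gap to the nearest of them as a share of the group's whole range exceeded the 95% critical value of Dixon's test. Of 92 sets of 4 samples, taken from the 37 members, the 8 other pathway genes with the largest called changes and the members' share of counts, 9 passed, where chance gives about 4.6, and 7 of the 9 were samples of starvation replicate 3.

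In that library *Rh2* was at 269 CPM, with the other starvation samples between 200.1 and 204 CPM, *Rh6* was at 41.5 CPM against 28.6 to 30.5 CPM, *rtp* was at 678 CPM against 525 to 543 CPM, and *ninaB* was at 59.7 CPM against 53.6 to 54.6 CPM. These were the highest values of their group. The lowest values of the same library were those of *rdgB*, at 278 CPM against 389 to 399 CPM, *inaE*, at 97.5 CPM against 141 to 145 CPM, and *Calx*, at 324 CPM against 440.4 to 456 CPM. The 3 low genes have long exonic lengths (9281, 7128 and 8959 bases in the same order) and stand beside the length trend of this library given above, whose part in them was not tested.

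In starvation replicate 2, *Rh5* was low at 170.3 CPM, against 186 to 188 CPM in the other starvation samples, and *e* was high at 27.8 CPM, against 21.6 to 21.9 CPM. In both genes the sample remained on the same side of all food samples as the rest of its group.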

How the results depend on the processing

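With DESeq2, 23 members were called, 20 of them higher, and with limma-voom 13, of which 10 were higher. Upper-quartile scaling and removal of the length trend each called 24, of which 21 were higher, and raised the genes called higher over the whole table from 1210 to 2292 and 2643. Leaving out 1 library at a time, the members called ranged from 7 (without food replicate 2) to 24 (without starvation replicate 3), the members called higher from 4 to 21 (same libraries), the members past 2-fold from 0 to 1, the genes called higher from 760 to 1947, the other pathway genes called from 5 to 14 and those called higher from 1 to 7. In every alternative 3 members were called lower. The genes called over the whole table varied as well, from 2391 to 4578 with 1 library left out and from 2897 to 4622 in the other alternatives. The median of the members stayed between 0.17 and 0.36.

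Estimates near 0 changed sign for 6 members that were not called. *inaE* was at 0.012 with DESeq2, 0.013 with RLE factors, 0.0096 without the 10 most abundant genes and 0.0068 without a filter, at 0.11 with upper-quartile scaling and at 0.071 with the length trend out. *laza* reached 0.071 and 0.023, and *ort* 0.084 and 0.043, under the last pair. *rdgA* was at -0.0053 with limma-voom. Leaving out 1 library gave -0.041 to 0.11 for *inaE*, -0.085 to 0.017 for *laza*, -0.11 to 0.056 for *ort*, -0.041 to 0.096 for *rdgA*, -0.0048 to 0.14 for *rdgB* and -0.022 to 0.085 for *santa-maria*. The cause was not tested.

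Whether replicate numbers pair the samples is not given in the labels, and the main fit used no pairing. Correlations of deviations between food and starvation samples of the same number were 0.040 to 0.29, all above 0 and over 0.1 in 2 of 4 pairs. Between different numbers they ran from -0.22 to 0.20. Food replicate 1 and starvation replicate 1 correlated best with another number, and the other samples with their own. A batch shared by replicate number was not tested. With a replicate block 13 members were called, 10 of them higher. *trp*, *ninaC* and *stops* were no longer called (adjusted p = 0.062, 0.077 and 0.051), *Arr2* was called (0.044) and *rdgA* was at -0.0048.

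The planned search of promoters for a motif and the comparison of rhodopsin proteins were not run. Changes of the size seen here, mostly under 1.5-fold, lie near what 4 samples a condition resolve, as the calls lost with single libraries show, and a missed call does not show that a gene was unchanged.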

Other observations

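Of the 4 genes listed for lens and cone cells, 1 was called. *Cpr72Ec*, a cuticle protein gene of the corneal lens, was at 95.3, 94.2, 103 and 84.3 CPM on food and 256, 282, 419.8 and 319 CPM under starvation, a log2 fold change of 1.76 ± 0.15 (SE; adjusted p = 1.3e-05) with groups far apart. The other 3 genes of the lens and cone cell list were not called. They were *Crys*, crystallin, at 0.12 ± 0.16 SE, adjusted p = 0.66, *retinin*, a corneal protein gene, at -0.35 ± 0.14 SE, adjusted p = 0.096, and *Cpr66D*, a further lens cuticle protein gene, at 0.74 ± 0.27 SE, adjusted p = 0.064.

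Among the genes of eye pigment, *v* (*vermilion*) and *ry* (*rosy*), which act in ommochrome and pteridine synthesis, had log2 fold changes of -1.12 ± 0.21 (SE; adjusted p = 0.0028) and -1.02 ± 0.11 (SE; adjusted p = 5.2e-05). *Pu* (*Punch*), the entry enzyme of pteridine synthesis, had one of -0.51 ± 0.11 (SE; adjusted p = 0.0042). Every starvation sample was below every food sample for these 3 genes. Of the 7 tested genes of this list 4 were called lower, the remaining one being *bw* at -0.24 ± 0.067 (SE; adjusted p = 0.020). Not called were *cn* at 0.42 ± 0.29 (SE; adjusted p = 0.33), *st* at 0.15 ± 0.091 (SE; adjusted p = 0.26) and *ca* at -0.05 ± 0.13 (SE; adjusted p = 0.84). *v*, *ry* and *Pu* also work in tissues outside the eye, fat body among them, and the part of each tissue was not tested.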
